A study of Drosophila melanogaster with 3 samples.

Results

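The peaks described here are weak NfI chromatin immunoprecipitation peaks that fell in coding exons of the fly genome. They were chosen by 3 criteria from the list called on the pooled replicates. A peak was kept if its coordinates were absent from the optimal list, the subset that passed the reproducibility threshold, if its summit lay more than 500 bp from every annotated transcription start site (TSS), and if that summit lay inside an annotated coding sequence (CDS). These criteria kept 718 of the 30000 pooled peaks (the members), out of 24186 peaks below the threshold on the 6 chromosome arms 2L, 2R, 3L, 3R, 4 and X. Position and absence from the optimal list were thus selected on. Every optimal peak had a higher pooled signal than every peak below the threshold, so low pooled signal was selected on too. The signals of the members are given as a description.

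Chromatin had been taken from whole Drosophila melanogaster embryos of mixed sex, collected at 12 to 24 h, from a transgenic line stably expressing NfI with green fluorescent protein at its C terminus. All 3 libraries, biological replicates 2, 3 and 4, belong to this 1 group, and they were scored against 1 shared control alignment. The group has no embryos without the tagged protein among the files used here, so no comparison between genotypes was possible. The labels do not say which promoter drives the transgene, and they do not say which tissues of the embryo contributed chromatin. That age comes from the source name of the samples, and a separate age label with an hour value far beyond it was not used. The description label calls the samples input controls, whereas the assay and antibody labels name a transcription factor experiment with NfI, and the libraries were read as immunoprecipitates. A peak height that is an average over a whole embryo cannot tell apart few cells with strong occupancy and many cells with weak occupancy.

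NfI belongs to the nuclear factor I proteins, which bind DNA as dimers and recognise a palindrome of TTGGC and GCCAA arms. Factors of this family are known in vertebrates as regulators of development, in brain and muscle among other tissues. Regulatory DNA of flies lies mostly in promoters, introns and between genes. Coding exons are GC-rich in comparison and are bounded by splice junctions or by untranslated sequence. Replicate-based thresholding is meant to retain peaks whose rank repeats between replicates. In these lists it took the form of a cut on pooled signal. The peaks below it are a mixture of weak occupancy and background that the lists themselves do not separate.

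Sequences of 100 bp to either side of the summit base are shown for 8 members, to let the base composition and the exon boundaries be seen. They are 7 of the 15 strongest members, with Socs36E among them, and capu, which like Socs36E matched a strong peak in every replicate. Windows were read from the plus strand of the dm6 assembly, only windows without annotated UTR bases were shown, and capitals mark annotated coding bases. The windows lie at chrX:10906466-10906666 (CG43901), chr2L:4195724-4195924 (Naprt), chr2L:20082892-20083092 (fok), chr3R:14819834-14820034 (btsz), chr3R:13261654-13261854 (CG11686), chr2L:3479137-3479337 (Thor), chr2L:18141694-18141894 (Socs36E) and chr2L:3889422-3889622 (capu).
CG43901: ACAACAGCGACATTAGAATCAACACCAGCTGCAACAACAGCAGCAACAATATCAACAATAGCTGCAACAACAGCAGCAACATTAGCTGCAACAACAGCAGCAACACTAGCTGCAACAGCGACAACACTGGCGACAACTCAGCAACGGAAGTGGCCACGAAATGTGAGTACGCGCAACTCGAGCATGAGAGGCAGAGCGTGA
Naprt: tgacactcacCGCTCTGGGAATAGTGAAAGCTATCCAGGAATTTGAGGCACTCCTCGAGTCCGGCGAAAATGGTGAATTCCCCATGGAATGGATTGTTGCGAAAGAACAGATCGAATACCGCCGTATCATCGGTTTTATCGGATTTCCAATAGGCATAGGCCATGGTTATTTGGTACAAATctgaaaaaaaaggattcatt
fok: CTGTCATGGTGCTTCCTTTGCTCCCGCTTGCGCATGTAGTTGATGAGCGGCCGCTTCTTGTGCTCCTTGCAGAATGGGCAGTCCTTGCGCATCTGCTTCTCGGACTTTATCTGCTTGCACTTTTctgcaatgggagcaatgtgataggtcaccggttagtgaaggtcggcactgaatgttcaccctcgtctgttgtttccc
btsz: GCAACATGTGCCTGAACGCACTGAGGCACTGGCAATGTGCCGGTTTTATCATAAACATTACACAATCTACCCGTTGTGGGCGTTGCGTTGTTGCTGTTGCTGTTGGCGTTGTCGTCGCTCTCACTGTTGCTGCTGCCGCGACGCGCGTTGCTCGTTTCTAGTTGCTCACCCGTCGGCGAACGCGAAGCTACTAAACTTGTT
CG11686: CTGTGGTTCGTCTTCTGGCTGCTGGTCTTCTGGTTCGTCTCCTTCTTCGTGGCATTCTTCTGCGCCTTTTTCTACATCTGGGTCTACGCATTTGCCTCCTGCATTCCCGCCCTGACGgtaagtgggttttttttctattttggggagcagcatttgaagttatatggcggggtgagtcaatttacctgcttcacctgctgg
Thor: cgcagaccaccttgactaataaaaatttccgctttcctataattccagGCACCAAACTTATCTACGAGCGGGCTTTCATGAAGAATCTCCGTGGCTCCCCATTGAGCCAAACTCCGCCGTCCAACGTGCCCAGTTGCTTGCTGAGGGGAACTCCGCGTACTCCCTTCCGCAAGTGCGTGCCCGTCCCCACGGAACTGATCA
Socs36E: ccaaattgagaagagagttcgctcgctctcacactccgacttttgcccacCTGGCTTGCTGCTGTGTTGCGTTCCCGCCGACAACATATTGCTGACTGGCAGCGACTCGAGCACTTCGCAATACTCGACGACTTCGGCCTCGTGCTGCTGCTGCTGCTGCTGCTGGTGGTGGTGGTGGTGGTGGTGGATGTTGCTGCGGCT
capu: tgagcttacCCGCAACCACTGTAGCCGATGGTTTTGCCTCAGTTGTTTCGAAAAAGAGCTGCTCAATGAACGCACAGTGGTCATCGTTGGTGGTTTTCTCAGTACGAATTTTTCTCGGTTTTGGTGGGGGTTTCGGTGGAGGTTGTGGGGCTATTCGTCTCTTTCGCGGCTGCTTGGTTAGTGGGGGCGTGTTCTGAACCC
Coding bases filled every position of the CG43901 and btsz windows and 117 positions of the CG11686 window. In 6 of these 8 windows the coding sequence stopped within the window. TTGGC or its complement began at 1 position in the btsz and Thor windows and at 0 positions in the remaining windows. The repeat CAGCAGCAG, read on the minus strand, began at 5 positions in the Socs36E window.

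Members lay towards the weak end of the pooled list. Their signal, a deposited peak height whose scale the authors do not state, ran from 44.6 to 171.6 with a median of 54.7, and the remaining peaks below the threshold had a median of 67.2. The lowest signal in the optimal list was 172.7, and the highest among the remaining peaks below the threshold was 172.6. Just inside the rule stood CG43901 at 171.6 and skd at 168.9. Just outside it, the coding exon peaks of the optimal list with the lowest signals lay in CG31259 at 181.5, in CG4822 at 194.3 and in PNUTS, which encodes a nuclear targeting subunit of protein phosphatase 1, at 195.0. Members held ranks 5856 to 29975 of the pooled list, and 487 of 718 (67.8%) were among its weakest 10000 peaks, against 9511 of 23468 (40.5%) of the remaining peaks below the threshold. A q-value of 0.01 or lower was given to 17 members (2.37%), against 3189 (13.6%) of the remaining peaks.

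Coding exons held a small share of the peaks, and that share grew towards the weak end of every list. Below the threshold, 2.97% of summits (95% Clopper-Pearson interval 2.76 to 3.19) were in coding exons, against 13.8% of the bases of the 6 arms, a ratio of 0.215. In the optimal list, 15 peaks or 0.258% were. The pooled share was the same 0.258% over the strongest peaks, taken to the length of the optimal list, as that list is the top of the pooled list by signal. It was 0.715%, 1.26%, 2.76%, 4.04% and 5.70% over the bins ending at ranks 10000, 15000, 20000, 25000 and 30000. The other summits below the threshold lay, as shares of all 24186, in introns (46.0%), promoters within 500 bp of a TSS (25.5%), sequence between genes (22.0%) and non-coding parts of exons (3.49%).

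The replicate lists, which were not used to choose the members by rank, had the same order of coding shares. Each replicate list was divided into its strongest peaks, as many as the optimal list holds, and its weaker peaks. Among the weaker peaks, coding exons held 856 summits (3.54%) in replicate 2, 842 (3.48%) in replicate 3 and 2155 (8.91%) in replicate 4. Among the strongest peaks they held 15 (0.258%), 20 (0.345%) and 29 (0.50%). The weaker peaks thus averaged 5.31% ± 3.12 and the stronger peaks 0.367% ± 0.122 (SD, n = 3 each). The difference of 4.94 ± 3.00 percentage points had the same sign in 3 of 3 replicates, with p = 0.25 in a 2-sided exact paired permutation test, the smallest p that 3 pairs allow. Replicate 4 stood apart, and without it the difference was 3.21 points. In its bin of ranks 10001 to 15000 the coding share was 7.12%, against 1.96% in replicate 2 and 1.78% in replicate 3.

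**Figure D1:**
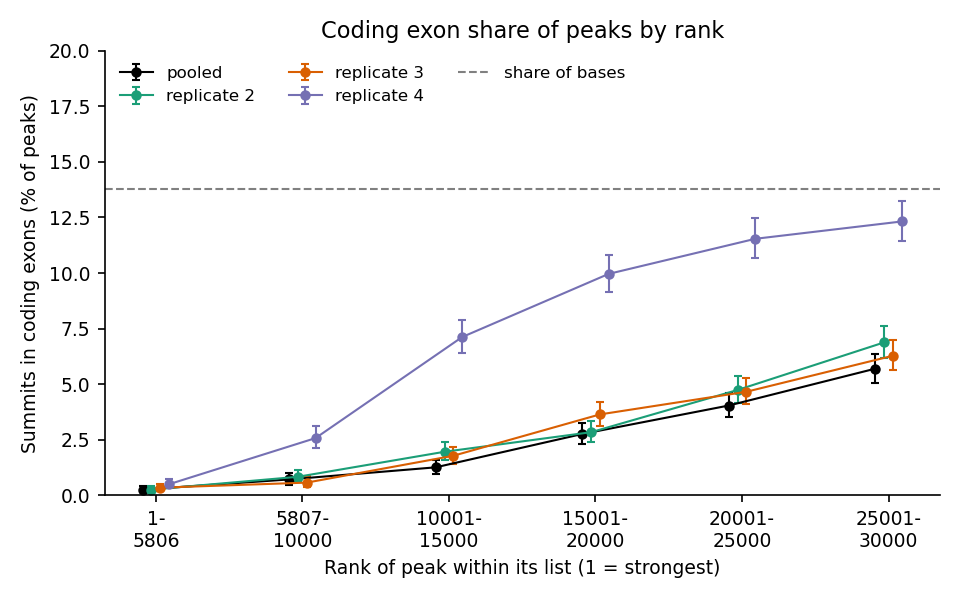
Share of peaks with a summit in a coding exon (%, y axis) by rank within the pooled list and each replicate list (x axis, strongest left), with 95% Clopper-Pearson intervals over peaks. The dashed line is the share of bases in that class (13.8%). All 4 lists climb from 0.50% or lower at the left, and replicate 4 reaches 12.3% at the right, against 6.88% in replicate 2 and 6.28% in replicate 3.

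Most members had a counterpart in few replicates. A replicate peak that overlapped by at least 1 bp was found in 0 replicates for 78 members (10.9%), in 1 for 349 (48.6%), in 2 for 216 (30.1%) and in 3 for 75 (10.4%). Of the remaining peaks below the threshold, 4.60% matched in 0, 27.0% in 1, 39.6% in 2 and 28.8% in 3 replicates. Among optimal peaks 87.2% matched in all 3. By replicate, 311 members (43.3%) matched in replicate 2, 314 (43.7%) in replicate 3 and 381 (53.1%) in replicate 4, against 65.5%, 69.0% and 58.2% of the remaining peaks below the threshold. In replicate 4 the peaks in non-coding parts of exons matched at 50.2%, and their interval (46.8 to 53.6) overlapped that of the members (49.3 to 56.8). Members that matched in replicate 4 alone numbered 166 (23.1%, against 8.29% of the remaining peaks). In replicate 2 alone 107 members matched (14.9%, against 10.8%) and in replicate 3 alone 76 (10.6%, against 7.92%). Peaks between genes were the class nearest to the members in replicate 2, where 49.0% matched, and 13.3% of them matched in replicate 4 alone. The members were weaker than the remaining peaks to begin with, and the part of signal in these match rates was not tested. The 3 replicates contributed to the pooled list, so a match is not independent of the choice of members.

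**Figure D2:**
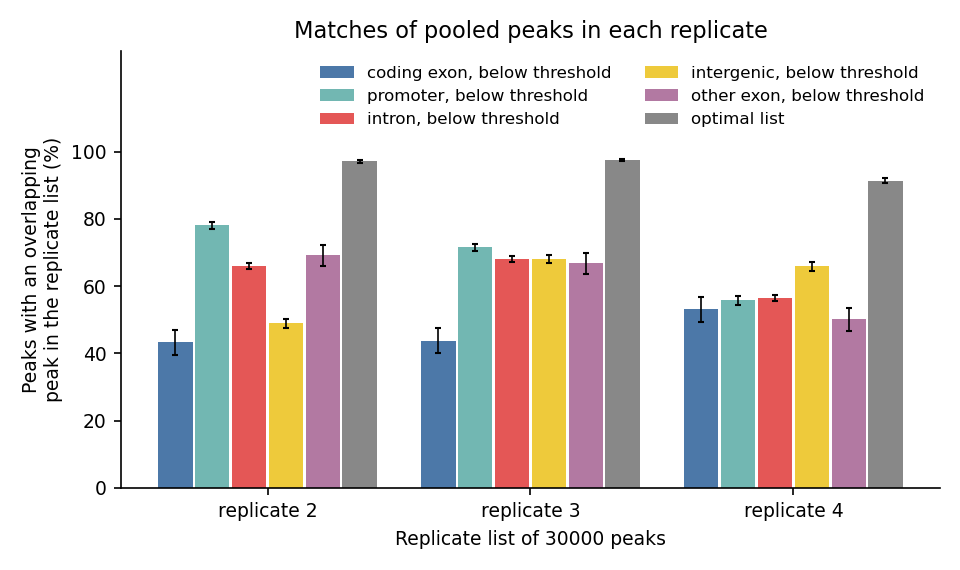
Share of pooled peaks with an overlapping peak in each replicate list of 30000 peaks (%, y axis), for members (coding exon, below threshold), for 4 further classes below the threshold and for the optimal list, with 95% Clopper-Pearson intervals over peaks. Members have the lowest bar in replicates 2 and 3, at 43.3% and 43.7%, and in replicate 4 they stand at 53.1%, against 50.2% of other exon peaks.

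Few members overlapped a strong peak of a replicate. Among the strongest peaks of the replicates, 692 members (96.4%) had no match, 21 matched in 1 replicate, 3 in 2 replicates (su(w[a]), mim and CG2991, of which the last 2 were picked out after their values were seen) and 2 in all 3. In what follows, relative signal is the signal of the strongest overlapping replicate peak over the median of the strongest peaks in that replicate's list. Socs36E, which encodes a suppressor of cytokine signalling that restrains the JAK/STAT pathway, had relative signals of 1.19, 1.29 and 1.71 in replicates 2, 3 and 4 (1.40 ± 0.275 as mean and SD, n = 3), at ranks 2307, 2043 and 1439. Its pooled peak, in the first coding exon, held rank 7087. capu, the actin-nucleating formin Cappuccino, had relative signals of 0.872, 1.36 and 0.668, and its pooled peak, also in a first coding exon, held rank 20489. In both genes a summit of the optimal list stood close by, at 200 bp from the Socs36E summit and 207 bp from the capu summit, and whether the replicate peaks belonged to that neighbour was not tested. CG2991 also had an optimal summit 200 bp away, whereas the nearest optimal summits lay 14902 bp from su(w[a]) and 15144 bp from mim. Within 400 bp of the mim summit lay 2 other pooled summits, and within 400 bp of the su(w[a]) summit lay 0. Whether the replicate peaks at mim belonged to those neighbours was not tested. Over all members the median distance to an optimal summit was 4376 bp, and 69 (9.61%) were within 1000 bp of one.

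The 15 members with the highest pooled signal lay in genes of mixed function. skd, a subunit of the kinase module of Mediator, had relative signals of 0.599, 0.404 and 0.319 in replicates 2, 3 and 4. Ubr1, a ubiquitin ligase that recognises destabilising N termini, had 0.319, 0.571 and 0.690. btsz, a synaptotagmin-like protein of epithelial cells, had 0.413, 0.825 and 0.241. The order of the replicates differed between these genes, with replicate 2 highest at skd, replicate 4 at Ubr1 and replicate 3 at btsz. Thor, the translation inhibitor 4E-BP, had 0.467, 0.370 and 0.309, and CG11686 had 0.434, 0.231 and 0.287. Naprt, an enzyme of NAD synthesis, had 0.543 in replicate 2 and 0.364 in replicate 3 and no match in replicate 4. CG43901 had the highest pooled signal of the members, yet no match in replicate 2, with 0.398 in replicate 3 and 0.351 in replicate 4. At su(w[a]), a splicing regulator, the 3 replicates had relative signals of 0.183, 0.625 and 0.597. The others of the 15 were fok, CG4734, mthl15 of the methuselah-like receptors, the UDP-glycosyltransferase gene Ugt37C1, Sdb and CG46385. Apart from Socs36E, the mean relative signal of those matched in 3 replicates ran from 0.317 to 0.526, below the median strong peak.

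Summits of members lay closer to the edges of coding exons than coding bases did. The comparison was made with the coding bases that the rule could have chosen, those more than 500 bp from every TSS (eligible coding bases), in blocks formed by merging overlapping annotated CDS intervals. The median distance to the first base outside the block was 103 bp for members and 171 bp for eligible bases. An edge was within 100 bp for 354 members (49.3%, interval 45.6 to 53.0), against 36.1% of eligible bases. An edge was further than 400 bp for 12.0% of members, against 25.4% of bases. Blocks of up to 200 bp held 156 members (21.7%), against 11.8% of bases, and blocks over 1600 bp held 11.8%, against 24.1%. The side beyond the nearer edge was intron for 274 of the 354 (38.2% of members, against 29.0% of bases) and untranslated or non-coding exon for 80 (11.1%, against 7.13%). Mlc2, the muscle myosin regulatory light chain, had its summit 1 bp from the first base outside a block of 243 bp, and skd had its summit 27 bp from the edge of a block of 69 bp.

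The edge pattern differed between replicates. Of the weaker coding summits, 52.8% in replicate 2, 50.4% in replicate 3 and 33.9% in replicate 4 were within 100 bp of an edge (45.7% ± 10.3, SD, n = 3), against the same 36.1% of bases. Replicates 2 and 3 were above the share of bases and replicate 4 was slightly below it, with a median edge distance of 173 bp. Replicate 4 was also the list with the highest coding share. Among members by pooled rank, the share within 100 bp was 63.3% over ranks 5807 to 10000 (19 of 30, interval 43.9 to 80.1), 54.0% to rank 15000, 57.3% to 20000, 49.5% to 25000 and 42.8% to 30000. The replicate lists did not share a steady decline over these bins. The shares were 57.1%, 64.3%, 59.2%, 51.5% and 47.4% in replicate 2 and 45.8%, 60.7%, 51.1%, 47.2% and 49.7% in replicate 3. In replicate 4 they were 42.6%, 30.1%, 34.1%, 33.3% and 35.1%. In the optimal list 10 of 15 coding exon peaks were within 100 bp and 0 of 15 were beyond 400 bp.

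**Figure D3:**
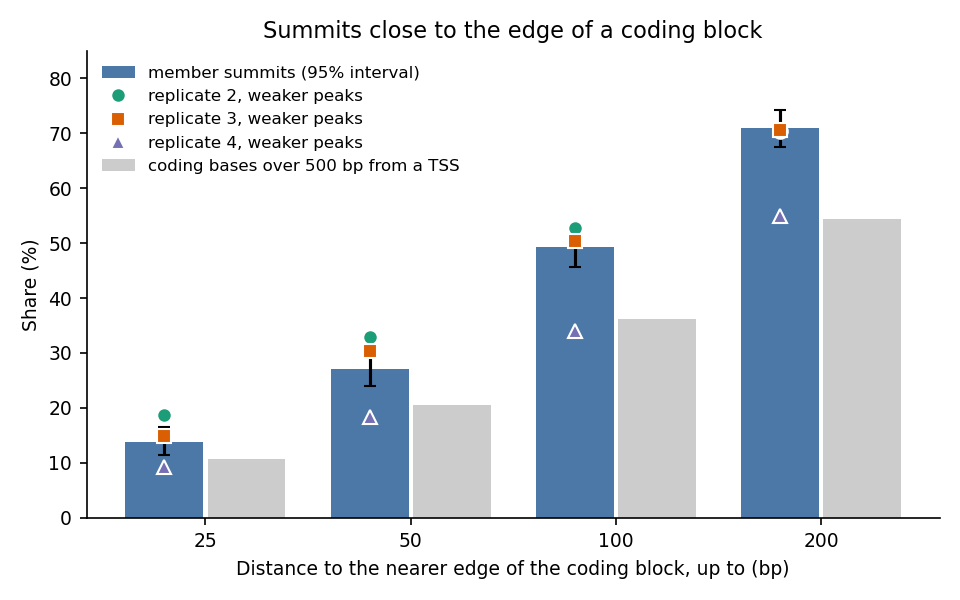
Share (%, y axis) of member summits (blue bars, 95% Clopper-Pearson interval over members) and of eligible coding bases (grey bars) that lie within 25, 50, 100 or 200 bp of the nearer edge of their coding block (x axis). Points give the weaker coding summits of each replicate; at 100 bp replicates 2 and 3 are at 52.8% and 50.4%, and replicate 4 at 33.9% is below the grey bar of 36.1%.

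Members were also placed early in the coding sequence. First coding exons held 158 members (22.0%, interval 19.0 to 25.2), against 9.30% of eligible bases, internal exons held 44.6% against 57.1%, and last exons 25.3% against 25.2%. The first 20% of the CDS held 191 members (26.6%), against 12.8% of bases. The replicate lists had 23.5%, 25.2% and 17.0% of their weaker coding summits there (21.9% ± 4.33, SD, n = 3), all above the share of bases. The median distance to a TSS was 1371 bp for members and 1783 bp for eligible bases, and 34.3% of members were within 1000 bp of a TSS, against 25.1% of bases.

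Coding share and base composition changed together around members. At the summit, 100% of members were coding by the rule, and 500 bp away 44.3% (upstream on the plus strand) and 45.7% (downstream) of positions were coding. GC content in 50 bp was 53.9% at the summit and 43.4% and 44.2% at those distances. Intron summits below the threshold had 41.5% at the summit and 40.8% and 40.5% at those distances, without a peak of that size. Windows of 100 bp to either side of the summit had a GC content of 52.2% ± 5.85 in members (SD, n = 718), against 53.5% of eligible coding bases, 43.0% in promoter windows, 41.6% in intron windows and 37.0% in optimal windows.

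**Figure D4:**
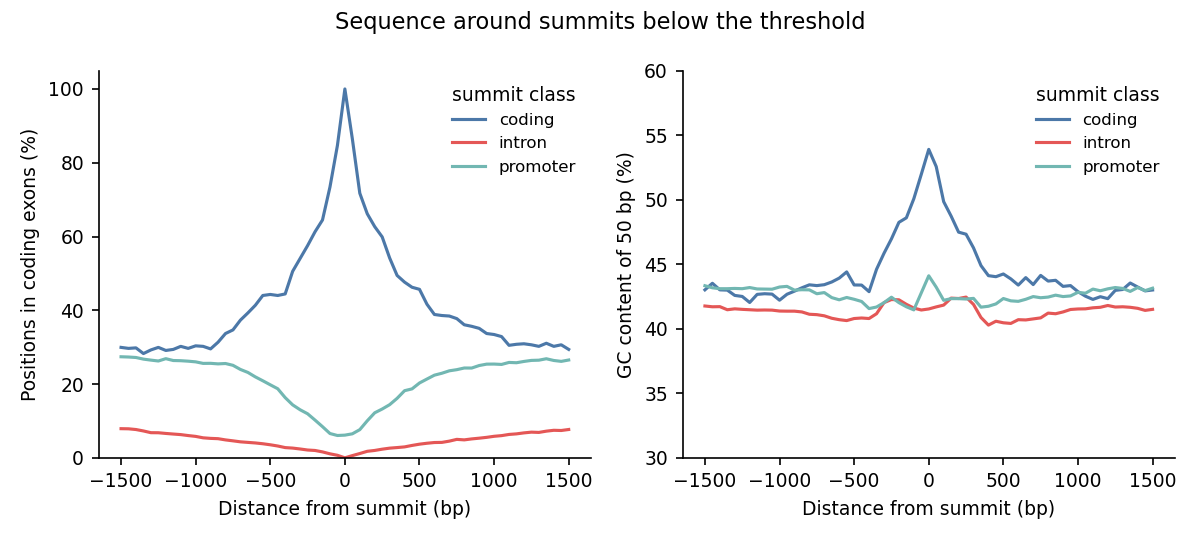
Share of positions in coding exons (%, left) and GC content in 50 bp (%, right) by distance from the summit (bp, x axis), averaged over members (coding) and over intron and promoter peaks below the threshold. The coding curves peak at the summit, at 100% and 53.9%, against a GC content of 41.5% at intron summits and 44.1% at promoter summits.

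To compare members with coding sequence of the same gene neighbourhood, each summit window was set against windows 500 bp to either side whose centre was also an eligible coding base. Such a flank existed for 441 members, and 277 (38.6%) had none. The p-values in this paragraph and the next are over members, which are not replicates, and they do not measure the spread between embryo collections. GC content was 52.3% at summits and 51.2% in flanks, 1.04 percentage points higher at the summits, with 238 members higher and 190 lower (exact 2-sided sign test over 441 members, p = 0.0230). Counting only coding bases the difference was 0.758 points (p = 0.197, exact sign test). Over whole windows it was −0.0379 points in replicate 2, 0.503 in replicate 3 and 0.996 in replicate 4 (0.487 ± 0.517, SD, n = 3). In replicate 2 the mean was thus near 0, with 253 summits higher and 244 lower (p = 0.720, exact sign test). In replicate 3, 264 were higher and 238 lower (p = 0.2645, exact sign test), and in replicate 4, 847 and 682 (p = 2.69e-05, exact sign test). Among the 74 members with a flank that matched in both replicates 2 and 3 the difference was −0.793 points (p = 0.295, exact sign test).

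Codons and short motifs separated summits from flanks little. In 67 codons around the summit of 375 members, 2 of 61 sense codons passed a Benjamini-Hochberg adjusted exact sign test, 3.28% of those tested, and both were rarer at summits. Flank counts were averaged where a member had both flanks, whereas the summit had 1 window. For rare codons this tips the test towards fewer copies at summits. CAT averaged 0.880 copies at summits and 0.709 in flanks, yet 125 members had more and 126 fewer. The calls, their p-values and their direction are therefore given as a description. CTT, a leucine codon, averaged 0.520 copies at summits and 0.665 in flanks (ratio 0.782, 79 members with more and 136 with fewer, adjusted exact sign test p = 0.00376). GAA, a glutamate codon, averaged 1.21 copies at summits and 1.41 in flanks (ratio 0.857, 107 with more and 172 with fewer, adjusted exact sign test p = 0.00376). In the replicates the CTT ratio was 0.942, 0.897 and 0.981 and the GAA ratio 1.02, 0.914 and 0.909. By the same tilted test no codon was called in replicates 2 and 3, and 15 of 61 were called in replicate 4, all rarer at summits. GAA was among the 15 (adjusted exact sign test p = 0.00242), and CTT was called in none of the replicates. With flanks at 1000 bp the CTT ratio was 1.003. Among members matched in both other replicates, leaving out replicates 2, 3 and 4 in turn gave 1, 0 and 0 called codons. The 1 called was neither CTT nor GAA. The 3 members with the most GAA codons were nahoda with 12, capt, the actin regulator Capulet, with 8, and CG13786 with 7. Of 15 motifs, 0 (0%) differed between summits and flanks by the exact sign test with Benjamini-Hochberg adjustment, and 0 had an unadjusted p under 0.05. That test set each summit window against 1 flank window, the one downstream on the plus strand where it was eligible. The flank shares of motifs below are over all 560 flank windows. The NFI palindrome (TTGGC and GCCAA arms 5 bases apart, on either strand) was found in 0 of 718 member windows. Only 4 optimal windows (0.0689%) held the palindrome, so it was rare in both sets. TTGGC, 1 arm of the palindrome, was found in 353 member windows (49.2%, against 35.6% of optimal windows). Among members with a flank, TTGGC was in 47.8% of summit windows and 47.5% of flank windows. The repeat CAGCAGCAG was in 58 members (8.08%), against 37 optimal windows (0.637%). Among those with a flank, 7.94% of summit windows and 5.36% of flank windows held it. Against the 1 tested flank, 30 members held it only at the summit and 17 only in the flank (adjusted p = 0.820, exact sign test). TAATTA, the core of homeodomain sites, was in 3.06% of members and 16.4% of optimal windows. With coding flanks as the comparison, the TAATTA shares were close, at 3.18% (summits) and 3.57% (flanks). Optimal windows had a lower GC content (37.0%) than members, and the part of base composition in the TAATTA difference was not tested.

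Chromosome arms were unequal. Of 6 arms, 3 (50%) passed an exact 2-sided binomial test of members against eligible coding bases with Benjamini-Hochberg adjustment. The X chromosome held 71 members, 9.89% against 17.9% of eligible bases, a ratio of 0.553 (0.436 to 0.688, adjusted exact p = 1.84e-08). The ratio was 0.699, 0.524 and 0.457 among the weaker coding summits of replicates 2, 3 and 4 (0.560 ± 0.125, SD, n = 3), below 1 in 3 of 3. For X, the ratio of summits to bases of their own class was 1.02 in promoters (interval 0.959 to 1.07) and 0.948 in introns (0.911 to 0.986). It was 0.853 in other exons (0.728 to 0.991) and 0.757 between genes (0.700 to 0.817). The coding interval did not overlap any of these. Among the 128 members matched in both replicates 2 and 4 the X ratio was 0.611, which did not pass (adjusted p = 0.228, exact binomial test), and among the 17 members at a q-value of 0.01 or lower it was 0.986. Beyond rank 20000 the coding ratio was 0.539 and the intron ratio 0.924. Among the weaker peaks of replicates 2, 3 and 4 the intron ratio was 0.970, 0.903 and 0.802, above the coding ratio in 3 of 3. Chromosome 4 held 0 of 718 members, which allows a share of up to 0.418% by a limit of 3 counts and 0.512% by the Clopper-Pearson limit, against 1.23% of eligible bases (8.86 members, adjusted exact p = 7.79e-04). Below the threshold the chromosome 4 ratio was also low in promoters (0.107), introns (0.111) and other exons (0.131), and it was 0.960 between genes. The replicates did not share the absence of coding summits, with 25 weaker coding summits on chromosome 4 in replicate 2, 11 in replicate 3 and 0 in replicate 4. Arm 2R held 167 members, a ratio of 1.21 (adjusted exact p = 0.0138), and in the replicates the ratio was 1.13, 0.952 and 1.06.

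**Figure D5:**
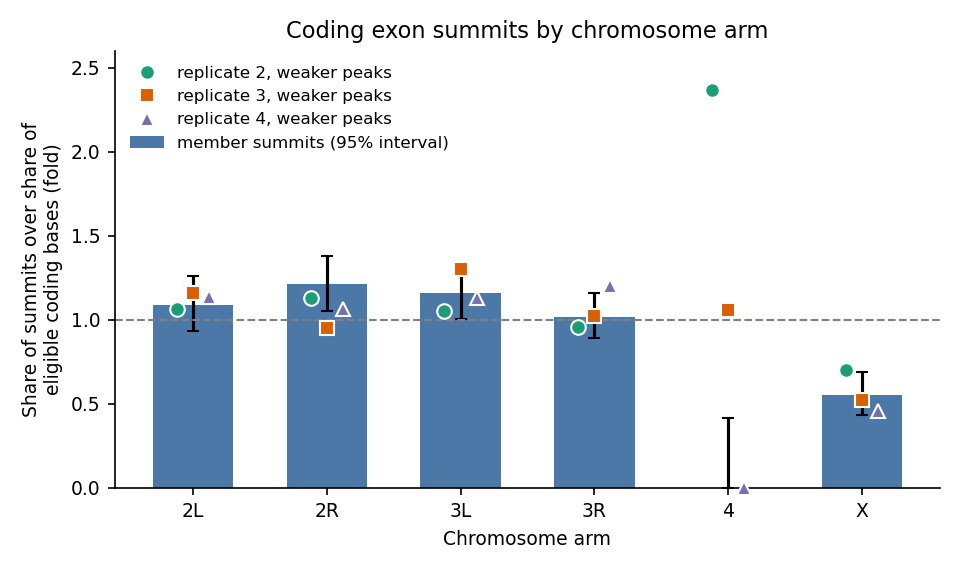
Share of member summits on each chromosome arm divided by that arm's share of eligible coding bases (ratio, y axis; bars with 95% Clopper-Pearson intervals over members), with the weaker coding summits of each replicate as points. The dashed line marks a ratio of 1. On X the bar (0.553) and all 3 replicate points lie below it, and on chromosome 4 replicate 2 is at 2.37 and replicate 4 at 0.

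Members were spread over many genes. Of 12369 genes with eligible coding bases, 661 (5.34%) had a member, 609 of them 1, 47 of them 2 and 5 of them 3 or more, and 1 member lay in coding sequence of 2 genes. Genes with a member had a median of 1.60 kb of eligible coding sequence, against 0.970 kb for genes without one. An optimal summit at the promoter was recorded for 252 of 661 genes with a member (38.1%), against 3198 of 11708 without (27.3%), and the part of gene length in that difference was not tested. The most members lay in scrib, the septate junction scaffold of apical-basal polarity, with 4. They ranked 16713 to 27187 of the pooled list, and 1 had no replicate match. An optimal coding exon peak lay in scrib too, with signal 209.1. Next with 3 each were Ndae1, a sodium-driven anion exchanger, swi2, CAP, an adaptor of cell-matrix adhesion, and klar, a nuclear envelope protein of organelle transport that also held an optimal coding exon peak. CG43901, Ugt37C1 and Sarm, an NADase of axon degeneration, had 2 each. The pair in Ugt37C1 matched the same replicate peaks, as did the pair in Sarm.

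Gene groups were compared by members per 100 kb of eligible coding sequence, which was 3.89 over all genes. Abundant housekeeping genes had 3 of 12 genes with a member, among them the glycolytic enzyme Gapdh1 (rank 19006) and the translation factor eEF2 (rank 25419), 19.98 members per 100 kb. Glial genes had 3 of 9, among them nrv2, a sodium pump beta subunit (rank 12118), and wrapper of the midline glia (rank 22532), 13.2 per 100 kb. Heat shock genes had 2 of 14, the regulator Hsf and the chaperone Hsp83, at 11.1 per 100 kb. Each of these densities rests on at most 3 members, and none was tested. Cuticle protein genes had 2 of 59, Cpr47Ea and Cpr66Cb, at 6.57 per 100 kb.

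Among larger groups, cytoskeleton and polarity genes had 6 of 20 genes with a member, 9 members in all and 4.82 per 100 kb, btsz and scrib among them. Axon guidance and adhesion genes had 4 of 22 (3.56 per 100 kb). They included the semaphorin Sema2a, with a relative signal of 0.391 in replicate 3 and 0.851 in replicate 4 and no match in replicate 2, and the adhesion protein gene Nrg, with 0.315, 0.276 and 0.253 in replicates 2, 3 and 4. Sarcomere genes had 6 of 19 (2.75 per 100 kb), with Mlc2 at 0.375, 0.267 and 0.238 and Obsc, a giant sarcomeric protein, matched in replicates 3 and 4. Glutamine-rich and chromatin regulators had 2 of 25, skd and the Polycomb group gene Psc (1.40 per 100 kb), Notch pathway genes had 1 of 14, the glycosyltransferase fng, and extracellular matrix genes had 1 of 15, the papilin gene Ppn. No member lay in the listed genes of several groups, which were the 59 cytosolic ribosome genes with 16.9 kb of eligible sequence and the Hox (8 genes), neuronal marker (5), synapse and excitability (17), hemocyte (9), EGFR pathway (12) and Wnt pathway (15) genes. The lists are short and do not cover every gene of these kinds. Outside them, members lay in the glutamate receptor gene GluRIIA, the vesicular GABA transporter gene VGAT, the neuroligin gene Nlg1 and the Wnt inhibitor gene Notum, which were picked out after the values were seen. Eligible sequence of the groups without a member ran from 12.5 kb for Hox to 90.6 kb for the synapse genes. All genes together had 3.89 members per 100 kb, and the part of sequence length in these absences was not tested.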

How the data were processed

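Peak lists on assembly dm6 had been deposited for 3 libraries and their pool, with an optimal list derived by the irreproducible discovery rate, per the file headers of the accompanying listings. The deposited signal of each peak and the deposited −log10 q-value are the authors' values, used to rank and filter peaks within a list. Which aligner and peak caller were used is not given in the sources used here. No list holds read counts, so depth is unknown and intervals cover the counting of peaks only.

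The summit is the peak start plus the deposited offset. TSSs, coding sequence and genes came from Ensembl release 115 (BDGP6.54), and sequence from the dm6 assembly. A base counted as coding if any annotated CDS held it. Members in 1 group were compared with eligible coding bases, with flanks at 500 bp, with replicate lists (1 bp overlap) and with the optimal list. Exact sign, binomial and paired permutation tests were 2-sided, with Benjamini-Hochberg adjustment over 61 codons, 15 motifs or 6 arms, at 0.05. Motifs were searched on both strands of 201 bp windows. p-values over peaks do not measure the spread between embryo collections, and the labels do not say whether replicates came from separate collections.

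The members and the 17 gene lists were chosen with earlier results of these data known. Genes were named as the 15 strongest members, the 8 genes with the most members, the 2 genes per list with the strongest member, members strong in all 3 replicates, the 3 weakest optimal coding peaks, and the 3 members richest in the called codon of highest ratio. Alternatives covered the TSS distance, coding definition, peak middle, overlap rule, window, shift, q-value, 1 member per gene, size of the strong set and leaving out replicates. Python 3.11.15, NumPy 2.4.6, pandas 2.3.3, SciPy 1.17.1 and matplotlib 3.10.9 were used.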

Additional observations from a re-analysis of the deposited data

How the results depend on the processing

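The number of members was 472 with a TSS distance of 1000 bp, 878 with 250 bp, and 656 with bases coding in every transcript whose exon holds them. The middle of the peak in place of the summit gave the same number, but every member has its summit at the middle, so this alternative tested nothing about them. Members matched in all 3 replicate lists made up 6.83% when the summit had to lie inside the replicate peak and 6.69% with 50% reciprocal overlap. The difference in coding share between weaker and stronger replicate peaks ran from 3.21 to 5.84 points when a replicate was left out, and was 4.36 and 5.37 points with the strongest 2000 and 10000 peaks.

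The GC difference was −2.27 points among the 8 members with a flank of the 17 at a q-value of 0.01 or lower (p = 0.289), 1.11 points with 1 member per gene (p = 0.0526) and 0.758 with coding bases only (p = 0.197), all exact sign tests. It ran from −0.793 to 1.18 points over members matched in both other replicates when 1 replicate was left out, with the lowest value without replicate 4. Called codons numbered 0 with windows of 50 bp to either side (ratios of 0.739 for CTT and 0.803 for GAA, no nearer to 1 than in the wider windows). They numbered 1 with a shift of 1000 bp, 0 at the q-value limit and 0 to 1 when a replicate was left out. Neither CTT nor GAA was called in any of these. At 1000 bp the call was another codon, and GAA had a ratio of 0.879 (adjusted exact sign test p = 0.462). With 1 member per gene both stayed called (adjusted exact sign test p = 0.0169 each). The CTT ratio was 1.003 with a shift of 1000 bp, and the GAA ratio ran from 0.832 to 1.04 when a replicate was left out, highest without replicate 4. No motif was called under any of these settings.

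Called arms numbered 0 at the q-value limit and 0 to 2 when a replicate was left out. The X ratio was 0.986 at that limit (adjusted p = 1, exact binomial test) and ran from 0.311 to 0.611 when a replicate was left out. The share of members within 100 bp of an edge was 64.7% at the limit, 54.3% in members above the median signal, and 52.5% to 58.6% when a replicate was left out. The last 2 measures, and the GC difference over coding bases, were varied after the data were seen. The cause of these shifts was not tested. Subsets matched in both other replicates held 128 to 162 members (63 to 93 with a flank), so these fits used fewer members.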
